A study of Homo sapiens with 3 samples.

Results

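A set of 9 genes of cell attachment to the basement membrane was followed through 3 bulk RNA libraries of RWPE1 cells. The genes were taken by name from the deposited gene count table: ITGA6, ITGB4, ITGA3, ITGB1, LAMA3, LAMB3, COL17A1, PLEC and DST, 9 of the 58037 genes listed, and each was found once, by its Ensembl identifier. RWPE1 is an established line of human prostate epithelial cells, immortalized and non-tumorigenic. There was 1 library per condition. OLFM4-wild cells are labelled wild type for the olfactomedin 4 gene. OLFM4-knockout cells had been given paired Cas9 nickase plasmids against OLFM4, and the last library is labelled OLFM4-active. According to the methods of the study, the cells were kept in puromycin as stable lines, described elsewhere in it as clones, and the RNA came from cells sorted on a green fluorescent protein reporter. The methods name CRISPR activation plasmids for OLFM4 as the source of the OLFM4-wild reporter cells, and do not describe the OLFM4-active cells apart from them, so what separates these conditions beyond their labels cannot be told from the sources used here. Any difference between libraries is also a difference between cultures or clones, and no spread between replicates could be measured.

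Basal epithelial cells are anchored to the basement membrane by hemidesmosomes. In a hemidesmosome, integrin alpha6-beta4 (ITGA6 and ITGB4) and collagen XVII (COL17A1) span the plasma membrane and are tied to keratin filaments inside the cell by the plakins plectin (PLEC) and dystonin (DST, whose epithelial form is BP230). Outside the cell, alpha6-beta4 binds laminin-332, a trimer that holds the alpha3 chain (LAMA3) and the beta3 chain (LAMB3). Integrin alpha3-beta1 (ITGA3 and ITGB1) binds the same laminin but links to actin at focal adhesions. In the prostate these proteins are features of the basal layer, and the alpha6 subunit, CD49f, is a common surface marker of basal and progenitor cells.

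RefSeq promoter sequences (GRCh38.p14, the 250 bases upstream of a transcript start) were at hand for 6 of the 9 genes. Of these, 4 promoters are shown, those of the laminin chains LAMA3 and LAMB3, whose count ratio was not alike in the libraries, and of COL17A1, whose level lay near the OLFM4-wild value in one of the other libraries but not in both. Capitals mark matches to 4 motifs on either strand. The AP-1 motif was TGANTCA, which is its own reverse complement. The E-box searched was CACGTG. The GC box searched was GGGCGG. The TATA box searched was TATAAA. None of these motifs overlaps another in the promoters shown.
LAMA3, chr18:23872770-23873019, plus strand: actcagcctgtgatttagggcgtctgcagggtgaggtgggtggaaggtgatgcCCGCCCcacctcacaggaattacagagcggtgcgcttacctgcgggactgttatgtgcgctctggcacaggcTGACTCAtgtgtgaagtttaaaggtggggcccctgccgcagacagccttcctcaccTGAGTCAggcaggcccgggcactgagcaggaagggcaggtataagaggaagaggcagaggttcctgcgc
LAMB3, start 1, chr1:209652426-209652675, minus strand: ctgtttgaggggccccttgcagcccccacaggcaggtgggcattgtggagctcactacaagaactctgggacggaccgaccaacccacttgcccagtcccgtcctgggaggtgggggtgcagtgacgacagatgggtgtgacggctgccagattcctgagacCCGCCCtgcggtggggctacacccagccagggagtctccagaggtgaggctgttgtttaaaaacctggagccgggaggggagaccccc
LAMB3, start 3, chr1:209651375-209651624, minus strand: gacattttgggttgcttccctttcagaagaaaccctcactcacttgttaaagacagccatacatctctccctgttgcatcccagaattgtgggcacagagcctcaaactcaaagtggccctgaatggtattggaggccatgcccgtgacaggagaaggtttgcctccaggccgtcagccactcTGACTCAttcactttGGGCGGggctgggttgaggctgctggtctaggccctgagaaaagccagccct
COL17A1, chr10:104085881-104086130, minus strand: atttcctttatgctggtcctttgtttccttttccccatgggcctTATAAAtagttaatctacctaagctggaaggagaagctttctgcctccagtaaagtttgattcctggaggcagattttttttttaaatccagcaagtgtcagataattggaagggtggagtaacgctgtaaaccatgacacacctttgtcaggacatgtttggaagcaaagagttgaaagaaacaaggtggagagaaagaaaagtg

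The LAMA3 promoter belongs to an internal start, 183567 bases into the gene as GENCODE draws it, and held 2 AP-1 matches, at -125 to -119 and at -69 to -63 from that start. The upstream LAMB3 promoter held no AP-1 match, whereas the promoter of the start 1051 bases further into the gene held 1, at -67 to -61, beside a GC box at -52 to -47. COL17A1 had neither, only TATAAA letters at -206 to -201. An AP-1 match of this form was present in 6.57% of the 35116 RefSeq promoters of the same length, a GC box in 42.6% and TATAAA in 10.7%. Counts per gene do not say which start was used, so none of the values below is assigned to a promoter.

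The deposited counts summed to 16309906 in the OLFM4-wild, 58837147 in the OLFM4-knockout and 23224216 in the OLFM4-active-labelled library. Levels are given as CPM, counts relative to a library size scaled by TMM, and differences as log2 fold changes. The intervals are 95% Clopper-Pearson intervals of the counts and cover counting error only. The targeted gene, OLFM4, had 11.8 CPM in OLFM4-wild, 2.55 CPM in OLFM4-knockout and 0.670 CPM in the library labelled OLFM4-active. The last value goes against the label, and no direction of OLFM4 activity is drawn from that library here. The basal cell markers KRT5, KRT14, KRT15 and TP63 were present in each library and summed to 16778 CPM in OLFM4-wild, 37575 CPM in OLFM4-knockout and 19775 CPM in the OLFM4-active-labelled library. The luminal marker KLK3 had 2 counts in OLFM4-wild and 0 in the other libraries, where 3 counts would be 0.0584 and 0.126 CPM. Of 10 mesenchymal, endothelial and leukocyte markers, between 3 and 5 were at 0 in a library, CDH5 and CD3E in each of them, and the list summed to 37.1, 33.6 and 23.9 CPM. Most of that was COL1A1, a fibrillar collagen, with 30.2, 25.8 and 21.8 CPM in OLFM4-wild, OLFM4-knockout and the OLFM4-active-labelled library, and COL1A2 had 50, 268 and 24 counts.

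The 9 genes were strongly expressed. Together they took 0.819% of all counts in OLFM4-wild, 1.09% in OLFM4-knockout and 1.19% in the OLFM4-active-labelled library, and their smallest count was 3517. All 9 averaged over 1 CPM, the filter that defined the 16600 genes used as background. The TMM scaling raised each log2 fold change by 0.35 for OLFM4-knockout over OLFM4-wild, 0.11 for the OLFM4-active-labelled library over OLFM4-wild and 0.24 for OLFM4-knockout over the OLFM4-active-labelled library, relative to plain library totals. For the 9 genes and for each list and gene named besides them, values with library totals are given below where the sign turns.

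**Figure D1:**
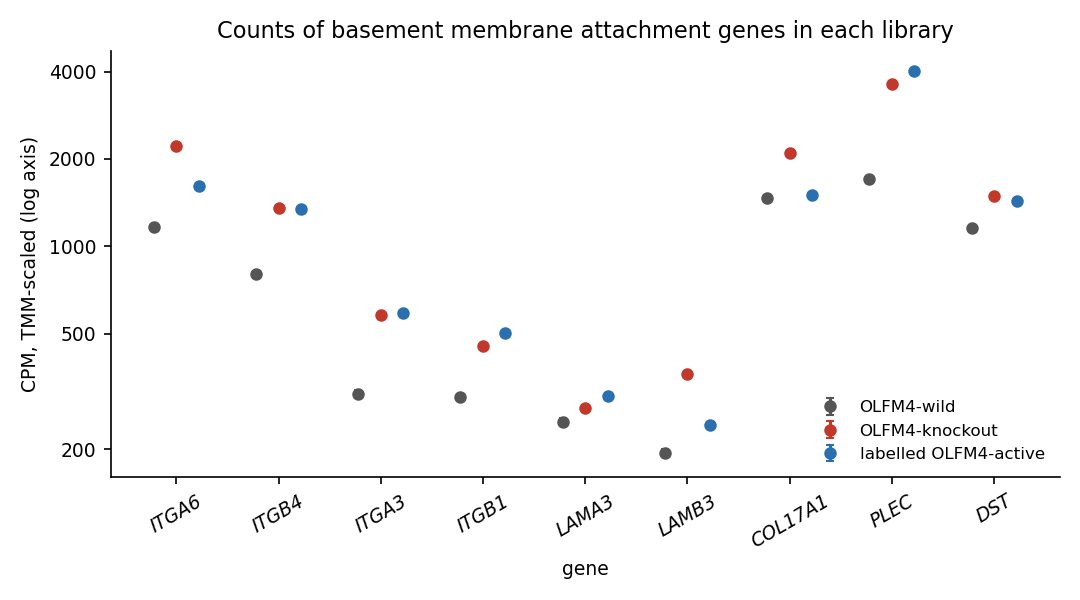
Levels of the 9 genes in each library, in CPM scaled by TMM on a log axis, with 95% counting intervals that are mostly smaller than the points (1 library per condition). Each gene was lowest in the OLFM4-wild library on this scale, and PLEC reached 4019 CPM in the library labelled OLFM4-active.

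Gene positions are those of GENCODE version 44 on GRCh38. ITGA6 (chromosome 2, 172427354 to 172506459, plus strand) encodes the alpha6 subunit. It had 1168 CPM in OLFM4-wild (95% interval 1152 to 1183), 2211 CPM in OLFM4-knockout (2198 to 2224) and 1613 CPM in the OLFM4-active-labelled library (1597 to 1629). The OLFM4-knockout library was highest and the OLFM4-active-labelled library lay between the others, with no overlap of the intervals. Its log2 fold change was 0.92 (0.90 to 0.94) in OLFM4-knockout against OLFM4-wild and 0.47 (0.44 to 0.49) in the OLFM4-active-labelled against the OLFM4-wild library. ITGA6 was among the genes the study itself picked out from these libraries, so its rank here is not independent of that choice.

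ITGB4 (chromosome 17, 75721328 to 75757818, plus strand) encodes the beta4 subunit, which pairs only with alpha6 and whose long cytoplasmic tail carries the plakins. Its level was 805 CPM (792 to 818) in OLFM4-wild, 1359.5 CPM (1349 to 1370) in OLFM4-knockout and 1339 CPM (1325 to 1354) in the library labelled OLFM4-active. Unlike its partner, ITGB4 was about as high in one of these libraries as in the other. The log2 fold changes against OLFM4-wild were 0.76 (0.73 to 0.78) for OLFM4-knockout and 0.73 (0.71 to 0.76) for the OLFM4-active-labelled library. Between those libraries the difference was 0.022 (0.0027 to 0.041), and it was -0.22 with library totals.

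ITGA3 and ITGB1 encode the subunits of the laminin receptor of focal adhesions. ITGA3 (chromosome 17, 50055968 to 50090481, plus strand) had 311 CPM (303 to 319) in OLFM4-wild, 581 CPM (575 to 588) in OLFM4-knockout and 588 CPM (578 to 598) in the OLFM4-active-labelled library. The OLFM4-wild library was clearly lowest, and the other libraries overlapped in their counting intervals. The log2 fold changes of ITGA3 against OLFM4-wild were 0.90 (0.86 to 0.95) and 0.92 (0.88 to 0.97), and the difference between OLFM4-knockout and the OLFM4-active-labelled library was -0.016 (-0.045 to 0.013). ITGB1 (chromosome 10, 32887273 to 33005792, minus strand) is the beta subunit shared by many integrins. It had 303 CPM (295 to 311) in OLFM4-wild, 455 CPM (449 to 460) in OLFM4-knockout and 502 CPM (493 to 511) in the OLFM4-active-labelled library, the highest of the 3. Its log2 fold change was 0.59 (0.54 to 0.63) for OLFM4-knockout and 0.73 (0.68 to 0.78) for the OLFM4-active-labelled library. ITGB1 was the one gene of the 9 with an annotated pseudogene, ITGB1P1, and only uniquely mapped reads were counted.

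The laminin chains behaved less alike. LAMA3 (chromosome 18, 23689453 to 23956222, plus strand) encodes the alpha3 chain, which carries the integrin-binding end of the trimer. It had 249 CPM (242 to 256) in OLFM4-wild, 276 CPM (272 to 281) in OLFM4-knockout and 304 CPM (297 to 311) in the OLFM4-active-labelled library. LAMA3 thus had the smallest difference of the 9 genes in OLFM4-knockout against OLFM4-wild, a log2 fold change of 0.15 (0.10 to 0.20), and with library totals it was -0.20. The OLFM4-active-labelled library differed from OLFM4-wild by 0.29 (0.24 to 0.34).

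LAMB3 (chromosome 1, 209614870 to 209652425, minus strand) encodes the beta3 chain. It had 194 CPM (187 to 200.1) in OLFM4-wild, 363 CPM (357 to 368) in OLFM4-knockout and 242 CPM (236 to 248) in the OLFM4-active-labelled library. The OLFM4-knockout library stood well above both others. The log2 fold change was 0.91 (0.85 to 0.96) for OLFM4-knockout and 0.32 (0.26 to 0.38) for the OLFM4-active-labelled library against OLFM4-wild. Between OLFM4-knockout and the OLFM4-active-labelled library LAMB3 differed by 0.58 (0.54 to 0.63), or a fold of 1.498, the widest gap of the 9 genes with TMM. With library totals it was 0.34, and PLEC, ITGB1 and LAMA3, each at -0.38, differed by more.

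COL17A1 (chromosome 10, 104031286 to 104085880, minus strand) encodes collagen XVII, the transmembrane collagen of the hemidesmosome. Its level was 1463 CPM (1445 to 1481) in OLFM4-wild, 2099 CPM (2087 to 2112) in OLFM4-knockout and 1497 CPM (1482 to 1513) in the OLFM4-active-labelled library. Only OLFM4-knockout was apart by more than a few percent. The log2 fold changes against OLFM4-wild were 0.52 (0.50 to 0.54) for OLFM4-knockout and 0.033 (0.010 to 0.056) for the OLFM4-active-labelled library, the latter turning to -0.081 with library totals.

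The plakins tie the receptors to keratin. PLEC, on the minus strand of chromosome 8, had 1699 CPM (1681 to 1719) in OLFM4-wild, 3637 CPM (3621 to 3654) in OLFM4-knockout and 4019 CPM (3994 to 4045) in the OLFM4-active-labelled library. These were the largest differences from OLFM4-wild among the 9 genes, with log2 fold changes of 1.10 (1.08 to 1.12) and 1.24 (1.22 to 1.26), and they remained 0.74 and 1.13 with library totals. DST (chromosome 6, 56457987 to 56954830, minus strand) differed less. Its level was 1157 CPM (1141 to 1172) in OLFM4-wild, 1486 CPM (1475 to 1496) in OLFM4-knockout and 1428 CPM (1413 to 1443) in the OLFM4-active-labelled library. The log2 fold changes of DST were 0.36 (0.34 to 0.38) and 0.30 (0.28 to 0.33), and with library totals the former was 0.0085. Between OLFM4-knockout and the OLFM4-active-labelled library the difference was 0.057 (0.039 to 0.076), and it was -0.18 with library totals. DST also makes long neuronal and muscle forms, and counts over the whole gene do not separate them from the epithelial form.

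**Figure D2:**
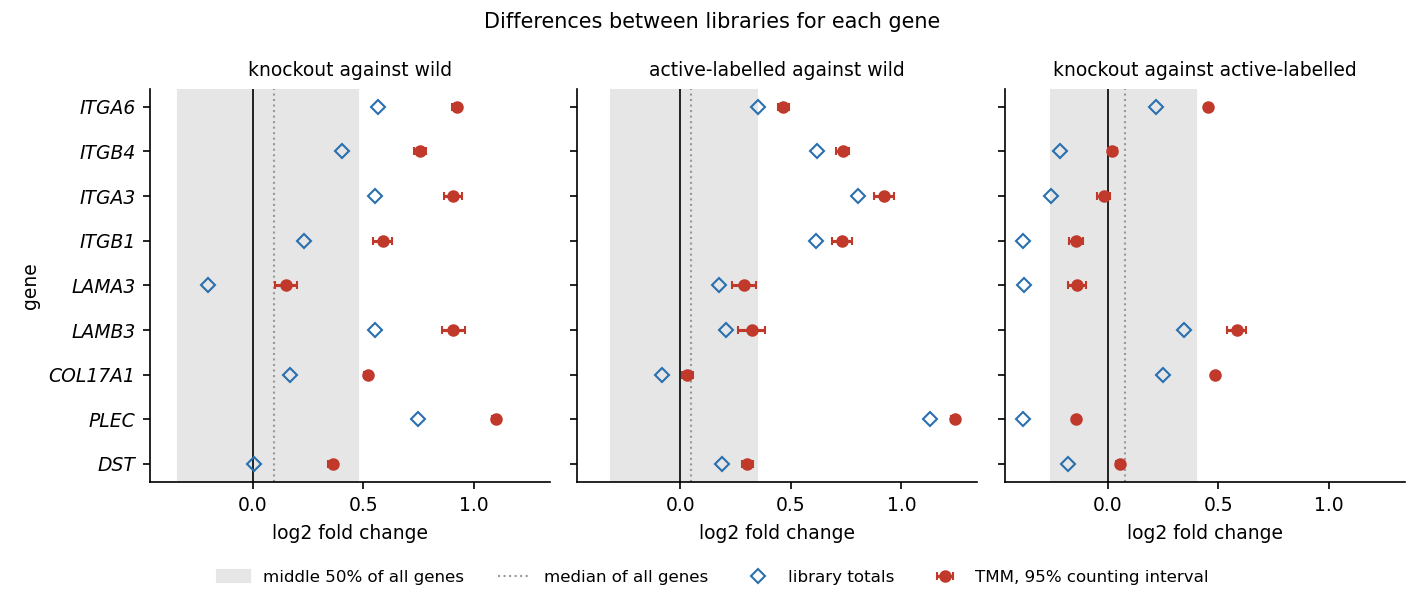
Log2 fold changes of each gene in the 3 comparisons of libraries (red points, TMM, with 95% counting intervals; open diamonds, library totals), over the middle 50% and the median of the 16600 background genes. PLEC lies farthest to the right in both comparisons with OLFM4-wild, at 1.10 and 1.24, while in OLFM4-knockout against the OLFM4-active-labelled library LAMB3, COL17A1 and ITGA6 lie at 0.58, 0.49 and 0.46 and the other genes between -0.14 and 0.06.

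Counted against a fold of 1.5, 6 of the 9 genes were higher in OLFM4-knockout than in OLFM4-wild, or 66.7%, where 19.1% of all 16600 genes were. They were ITGA6, ITGB4, ITGA3, ITGB1, LAMB3 and PLEC, and for 5 of them the whole counting interval lay above the fold. The exception was ITGB1, with a fold of 1.502 (1.46 to 1.55). None of the 9 was lower by as much, against 15.8% of all genes. The median log2 fold change of the 9 genes was 0.76, beside 0.10 over all genes. With library totals the count of 6 became 1, PLEC, and the median became 0.40, while the shares of all genes past the fold became 6.95% higher and 30.4% lower.

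In the OLFM4-active-labelled against the OLFM4-wild library, 4 of the 9 genes were higher by over 1.5-fold, or 44.4%, against 12.3% of all genes. These were ITGB4, ITGA3, ITGB1 and PLEC. None was lower by that fold, against 14.5% of all genes, and the median log2 fold change was 0.47, beside 0.05 over all genes. Both comparisons use the same OLFM4-wild library, so a low value there moves both alike. PLEC alone was higher by over 2-fold, in OLFM4-knockout (5.77% of all genes) as in the OLFM4-active-labelled library (3.78%).

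OLFM4-knockout against the OLFM4-active-labelled library gave 0 of 9 genes higher and 0 lower by over 1.5-fold, where 14% and 10.9% of all genes were. With library totals those shares of all genes were 5.85% and 20.3%. The counting intervals lay above 0 for 5 genes, below 0 for 3 (ITGB1, LAMA3 and PLEC) and across 0 for ITGA3. The median was 0.022, beside 0.08 over all genes, and its sign depended on the scaling.

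The 9 genes are abundant and long, and narrower backgrounds were also taken, chosen after seeing the data. Of 1828 genes averaging 100 CPM or more, 24% were higher by over 1.5-fold in OLFM4-knockout and 14.1% in the OLFM4-active-labelled library against OLFM4-wild. Among the 1006 of these whose longest transcript reaches 4 kb, the shares were 12.2% and 14.2%, with medians of 0.10 and 0.23. The members' shares of 66.7% and 44.4% were above each of these backgrounds. No spread between cultures stands behind any of these shares.

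Levels of the 9 genes were compared with each other per length, as CPM per kb of the exons of all annotated transcripts. In OLFM4-wild the order ran from COL17A1 with 209 CPM per kb through ITGA6 with 175, ITGB4 with 119 and PLEC with 100.02 down to ITGB1 with 20.8 and LAMA3 with 17.2. Genes of the hemidesmosome's membrane proteins thus led the list, and LAMA3 closed it at the length used. ITGA6 came first in OLFM4-knockout with 331 CPM per kb, ahead of COL17A1 with 300.4, and also in the OLFM4-active-labelled library with 241, ahead of PLEC with 237. LAMA3 was last in each library at the length used. Transcripts from its internal start were not counted apart, and a length shorter than those used, 14488 and 10651 bases, would raise its level per kb. Taken over the length of the longest transcript, the same 4 genes led and LAMA3 again closed the order, whereas the places of LAMB3, ITGA3, ITGB1 and DST in between depended on which length was used. Per kb of the exons of all transcripts, the OLFM4-wild levels of 7 of the 9 genes were above those of 90% of the background genes. The exceptions were ITGB1 and LAMA3, and DST passed narrowly, at 90.01%. Over the longest transcript ITGB1 passed as well, at 94.7%, while LAMA3 stayed at 85.7%.

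Ratios of counts within a library do not depend on any scaling between libraries. For the beta and alpha subunits of the hemidesmosomal receptor, ITGB4 had 0.689 counts per ITGA6 count in OLFM4-wild (0.675 to 0.704), 0.615 in OLFM4-knockout (0.609 to 0.621) and 0.830 in the OLFM4-active-labelled library (0.818 to 0.843). The counts of these genes were not in one proportion, with relatively more ITGA6 in OLFM4-knockout and relatively more ITGB4 in the OLFM4-active-labelled library. ITGB1 per ITGA6, the other pairing of alpha6, was 0.259, 0.206 and 0.311 in the same order. For the focal adhesion receptor, ITGB1 per ITGA3 was highest in OLFM4-wild with 0.974 (0.938 to 1.01), against 0.782 (0.769 to 0.795) in OLFM4-knockout and 0.854 (0.833 to 0.875) in the OLFM4-active-labelled library.

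Counts of the genes for the alpha subunits of the laminin receptors kept one ratio in a pair of libraries and another in the last. ITGA6 per ITGA3 was 3.76 (3.65 to 3.87) in OLFM4-wild and 3.80 (3.76 to 3.85) in OLFM4-knockout, whose intervals overlap, and 2.74 (2.69 to 2.80) in the OLFM4-active-labelled library. The laminin chains showed the reverse arrangement. LAMB3 per LAMA3 was 0.778 (0.744 to 0.813) in OLFM4-wild and 0.796 (0.769 to 0.824) in the OLFM4-active-labelled library, but 1.31 (1.28 to 1.34) in OLFM4-knockout. That ratio was 1.69-fold higher (1.61 to 1.77) in OLFM4-knockout than in OLFM4-wild, whereas the OLFM4-active-labelled library differed from OLFM4-wild by 1.02-fold (0.967 to 1.08).

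The plakin and collagen ratios differed in each pair of libraries. COL17A1 per ITGB4 was 1.82 in OLFM4-wild, 1.54 in OLFM4-knockout and 1.12 in the OLFM4-active-labelled library. PLEC per ITGB4 took the opposite order with 2.11, 2.68 and 3.001. DST per PLEC, the balance of the hemidesmosomal plakins, was 0.681 (0.669 to 0.693) in OLFM4-wild, 0.408 (0.405 to 0.412) in OLFM4-knockout and 0.355 (0.351 to 0.360) in the OLFM4-active-labelled library. Of the 8 pairs examined, 4 differed by over 1.5-fold between some of the libraries: ITGB1 per ITGA6, LAMB3 per LAMA3, COL17A1 per ITGB4 and DST per PLEC. For ITGB1 per ITGA6 that difference lay between OLFM4-knockout and the OLFM4-active-labelled library, at 1.51-fold.

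**Figure D3:**
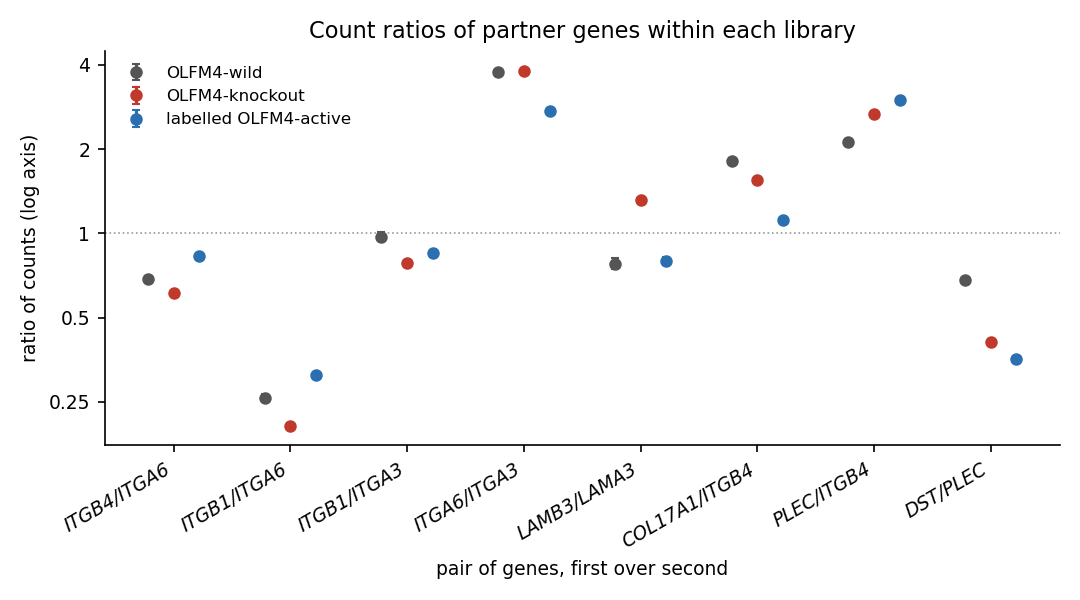
Ratios of counts of 8 pairs of genes whose products bind or replace each other, within each library, on a log axis with 95% counting intervals. LAMB3/LAMA3 lies at 1.31 in OLFM4-knockout and below 0.8 in the other libraries, and DST/PLEC lies at 0.681 in OLFM4-wild and at 0.408 and 0.355 in the others.

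Genes around this system were read from lists chosen by function. Over all 16600 genes, 19.1% were higher and 15.8% lower by over 1.5-fold in OLFM4-knockout than in OLFM4-wild. For the OLFM4-active-labelled library against OLFM4-wild these shares were 12.3% and 14.5%. Of 22 other basement membrane proteins, 18 averaged 1 CPM or more. In OLFM4-knockout against OLFM4-wild, 3 of them were higher and 3 lower by over 1.5-fold, with a median of 0.21, and in the OLFM4-active-labelled library 3 were higher and 4 lower, with a median of 0.09. With library totals these medians were -0.14 and -0.023. COL18A1, the core of collagen XVIII, was higher in both, by 1.26 (1.10 to 1.43) and 0.87 (0.69 to 1.06). NID1, the nidogen that bridges laminin and collagen IV, was higher by 0.70 (0.64 to 0.76) in OLFM4-knockout. LAMB2, the beta2 laminin chain, was the lowest of the list, with 231 counts in OLFM4-wild, 99 in OLFM4-knockout and 23 in the OLFM4-active-labelled library and log2 fold changes of -2.72 (-3.08 to -2.37) and -3.70 (-4.41 to -3.10). The list as a whole thus lay nearer to the background than the 9 genes did.

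Other integrin subunits were mostly scarce, with 10 of 22 averaging 1 CPM or more. Of these 10, 4 were higher and 1 lower by over 1.5-fold in OLFM4-knockout (median 0.35), against 19.1% and 15.8% of all genes. In the OLFM4-active-labelled library 3 were higher and 1 lower by that fold (median 0.24), against 12.3% and 14.5%. With library totals the OLFM4-knockout median was -0.0022, with 2 higher and 2 lower, against 6.95% and 30.4% of all genes. ITGA2, a collagen and laminin receptor subunit that pairs with beta1, had 66.6 CPM in OLFM4-wild, 132 CPM in OLFM4-knockout and 184 CPM in the OLFM4-active-labelled library, or log2 fold changes of 0.99 (0.90 to 1.08) and 1.47 (1.37 to 1.56). ITGA1, also a beta1 partner, lay the other way with -0.66 (-0.95 to -0.37) and -0.76 (-1.12 to -0.41), on 155 counts in OLFM4-wild. ITGA5, the fibronectin receptor subunit, had -0.24 and -0.33.

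Of 22 integrin linkers and focal adhesion proteins, 21 passed the filter. In OLFM4-knockout 4 of these were higher and 0 lower by over 1.5-fold (median 0.08), against 19.1% and 15.8% of all genes. The 4 of 21 were thus near the share of all genes. In the OLFM4-active-labelled library 4 were higher and 1 lower by that fold (median 0.35), against 12.3% and 14.5%. With library totals 0 were higher and 4 lower in OLFM4-knockout (median -0.27), against 6.95% and 30.4% of all genes. VCL, the actin-binding vinculin, had 146 CPM in OLFM4-wild, 275 CPM in OLFM4-knockout and 375 CPM in the OLFM4-active-labelled library. BCAR1, the adaptor p130Cas, was higher by 0.94 (0.85 to 1.03) in OLFM4-knockout, and FLNA, the actin crosslinker filamin A, by 0.67 (0.65 to 0.69). TNS4 and PXN, focal adhesion adaptors, were higher by 1.30 (1.26 to 1.35) and 0.87 (0.80 to 0.93) in the OLFM4-active-labelled library, and in OLFM4-knockout against that library they had -0.86 and -0.82. In that last comparison 2 of the 21 were higher and 5 lower by over 1.5-fold, against 14% and 10.9% of all genes.

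The 6 tetraspanins of laminin-binding integrins, which gather these receptors in the membrane, all had positive values in OLFM4-knockout against OLFM4-wild with TMM (median 0.47). Of them, 2 passed 1.5-fold, where 19.1% of all genes were higher by that fold. With library totals 4 of the 6 were positive, CD81 being at -0.17 and CD63 at -0.11, and 0 passed the fold. CD151, the closest partner of alpha3-beta1 and alpha6-beta4, had 81.3 CPM in OLFM4-wild, 136 CPM in OLFM4-knockout and 91.7 CPM in the OLFM4-active-labelled library, or 0.74 (0.66 to 0.82) and 0.17 (0.08 to 0.27). CD9 had 0.60 and 0.33. None of the 6 passed the fold in the OLFM4-active-labelled library (median 0.10, or -0.011 with library totals). Of all genes, 12.3% were higher and 14.5% lower by it.

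The other plakins did not share the position of PLEC. Of DSP, PPL, EVPL and MACF1, 0 passed 1.5-fold in either comparison with OLFM4-wild, and the medians were -0.12 and -0.01. DSP, the desmosomal plakin desmoplakin, had 5347 CPM in OLFM4-wild, 4596 CPM in OLFM4-knockout and 4341 CPM in the OLFM4-active-labelled library. PPL, periplakin, had 0.32 and 0.37, the former being -0.029 with library totals. A list of proteases linked to the cutting of laminin-332 or collagen XVII, directly or through plasminogen, had 9 genes that passed the filter. In OLFM4-knockout 1 was higher and 1 lower by over 1.5-fold (PLAT at 1.30 and MMP2 at -1.44), against 19.1% and 15.8% of all genes. In the OLFM4-active-labelled library 0 were higher and 1 lower by that fold (MMP2 at -0.93), against 12.3% and 14.5%. Without regard to the fold, 2 and 3 of the 9 lay above OLFM4-wild in these libraries. PLAT, a plasminogen activator, rested on 78 counts in OLFM4-wild and MMP2, a gelatinase, on 99.

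**Figure D4:**
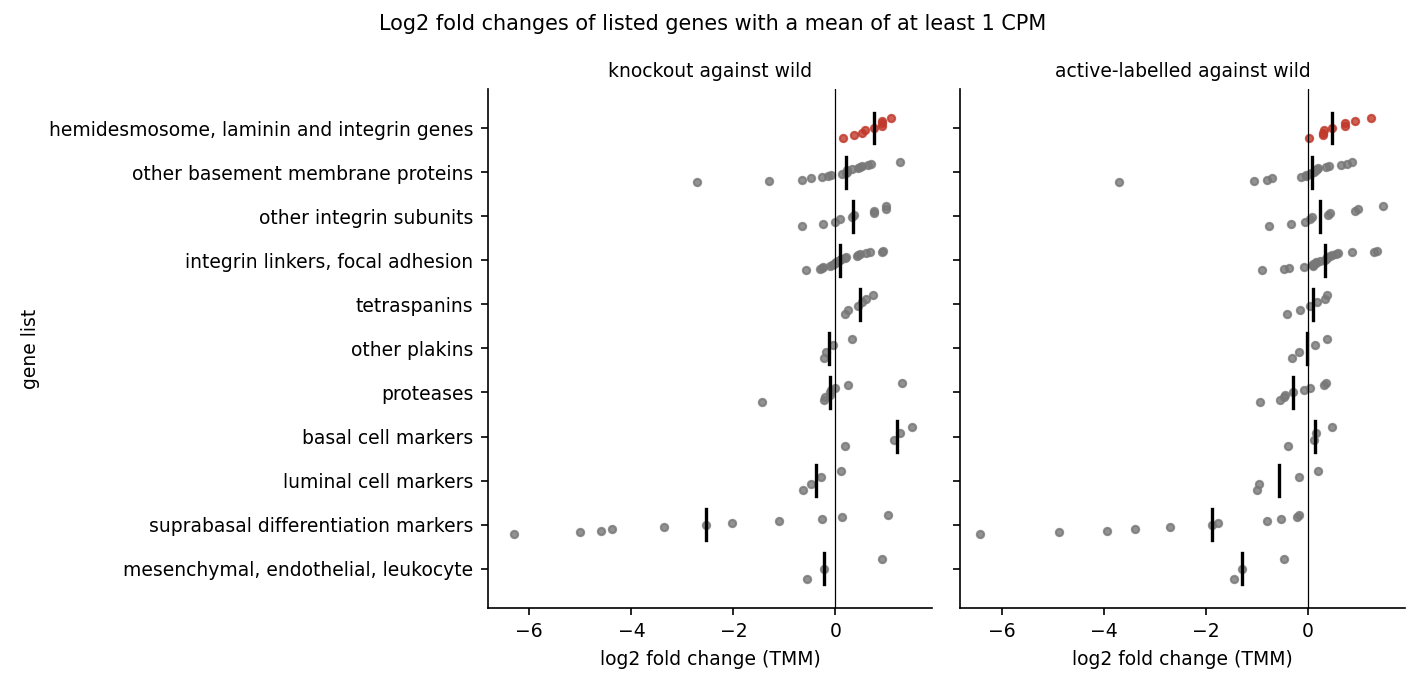
Log2 fold changes (TMM) of each gene averaging 1 CPM or more in the 9 genes (red) and 10 other lists (grey), in both comparisons with the OLFM4-wild library; black bars are medians. The 9 genes have medians of 0.76 and 0.47, the other plakins -0.12 and -0.01, and the suprabasal markers -2.53 and -1.88.

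Markers of cell state also differed between the libraries. Of the 4 basal markers, 3 were higher by over 1.5-fold in OLFM4-knockout against OLFM4-wild, where 19.1% of all genes were. These were the keratins KRT15 at 1.504, KRT14 at 1.27 and KRT5 at 1.15, while TP63, the basal transcription factor, had 0.19, or -0.16 with library totals. In the OLFM4-active-labelled library 0 of the 4 passed the fold, with KRT14 at 0.47, KRT5 at 0.16 and KRT15 at -0.38. Suprabasal differentiation markers lay far lower in both libraries than in OLFM4-wild. Of the 11 that averaged 1 CPM or more, 8 were lower by over 1.5-fold in OLFM4-knockout (median -2.53), against 15.8% of all genes. In the OLFM4-active-labelled library 8 were lower by that fold (median -1.88), against 14.5%, and 0 of the 11 lay above OLFM4-wild. FLG, filaggrin, had 191 CPM in OLFM4-wild, 5.92 CPM in OLFM4-knockout and 6.49 CPM in the OLFM4-active-labelled library. The summed suprabasal level ran from 2255 CPM in OLFM4-wild over 1844 CPM to 1220 CPM, of which KRT10, an early differentiation keratin, made up 1217, 1331 and 842 CPM. In OLFM4-knockout 2 of the 11 lay above OLFM4-wild, TGM1, a transglutaminase, with 1.04 and KRT10 with 0.13, or -0.22 with library totals. Of the luminal markers KRT8 had 282, 231 and 146 CPM in the same order. The part of these markers in the values of the 9 genes was not tested, and in bulk RNA fewer cells of a type and less RNA per cell cannot be told apart.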

How the data were processed

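Total RNA depleted of ribosomal RNA was sequenced as stranded pairs of 75-base reads. Per the labels and the methods of the study, the authors trimmed reads with cutadapt, aligned them to GENCODE GRCh38 with HISAT2 and counted uniquely mapped, reversely stranded pairs per gene with featureCounts, and the deposited values are raw counts. The annotation release is not given in the sources used here. Of 58037 identifiers, 56948 matched GENCODE version 44, used for positions and lengths.

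Library sizes were scaled by TMM (edgeR 4.0.16, R 4.3.3), with factors of 1.11, 0.872 and 1.03. Log2 fold changes used the log2 CPM formula of voom with an offset of 0.5 counts, without its weights or linear model. With 1 library per condition no test between conditions could be made. Clopper-Pearson intervals (95%, scipy 1.17.1) cover counting error only. Genes averaging 1 CPM or more formed the background. Depth was 16309906 to 58837147 counts, at which 3 counts are 0.0584 to 0.165 CPM. Alternatives were library totals, upper quartile and DESeq2 1.42.0 factors, offsets of 1 and 5 counts, leaving the 10 most abundant genes out of the library sizes, thinning to the smallest total, other filters and another length. Fold changes and intervals were checked on simulated counts, in which few genes differed, as many raised as lowered. The simulation held counting error only. It thus does not check the scaling at the shifts seen here, or the single library per condition.

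All 9 genes were named in each comparison. From each of 10 other lists, up to 3 genes with the largest difference in each direction were eligible to be named, and besides them the 5 abundant genes nearest to the median of the 9, OLFM4, and genes of the marker lists for the check of cell type. The members and lists were chosen with earlier results of these data known. Some genes that belong to these lists, or to laminin-332, are not reported here.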

Additional observations from a re-analysis of the deposited data

How the results depend on the processing

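No paired analysis was possible because each condition had 1 library, and for the same reason no library could be left out. With library totals in place of TMM the median log2 fold change of the 9 genes was 0.40 in OLFM4-knockout and 0.35 in the OLFM4-active-labelled library against OLFM4-wild and -0.22 between those libraries, and 1 gene instead of 6 was higher by over 1.5-fold in OLFM4-knockout. LAMA3 turned to -0.20 in OLFM4-knockout against OLFM4-wild and COL17A1 to -0.081 in the OLFM4-active-labelled against the OLFM4-wild library, and between OLFM4-knockout and the OLFM4-active-labelled library ITGB4 turned to -0.22 and DST to -0.18. Upper quartile factors gave medians of 0.67 in OLFM4-knockout against OLFM4-wild and -0.083 against the OLFM4-active-labelled library, with ITGB4 at -0.083 and DST at -0.048 in the latter. Thinning all libraries to the smallest total gave 0.70 and -0.021, with ITGB4 at -0.021. With library totals and upper quartile factors all genes shift alike, by construction, and for the thinned counts the cause was not tested. Under DESeq2 factors, either offset and library sizes without the 10 most abundant genes, medians and counts of the 9 genes stayed within their counting interval or within 1.5 times. Of 106 alternative values in all, for the medians, the counts, the partner ratios and the levels per length, 98 did so. Counts of the 9 genes under other background filters are among the 98 and were bound to stay, since filters change only the background. So was the number of partner ratios under another length and under other scaling factors, which cancel in a ratio within a library. Levels per length were ranked within OLFM4-wild, where a scaling factor multiplies all genes alike and can act only through the background filter. The offsets are small against the counts of the 9 genes and could hardly move their ratios. Values that could not, or could hardly, change are counted in the 98 and do not show stability. The number of partner ratios that differed by over 1.5-fold, 4 of 8, and the number of genes with a high level per length, 7, stayed within 1.5 times in each alternative run. The depth leaves little counting error for the 9 genes, so the scaling and the single library per condition set the limits.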

Other observations

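Of the 1828 genes averaging 100 CPM or more, those nearest to the median of the 9 genes were sought by distance over the log2 fold changes of both libraries against OLFM4-wild. The nearest was SERP1, a stress-associated endoplasmic reticulum protein, with 0.76 and 0.47 and a distance of 0.0092. It was followed by ATP5MK, a small ATP synthase subunit (0.73 and 0.47), HM13, the signal peptide peptidase (0.77 and 0.48), PTDSS1, a phosphatidylserine synthase (0.73 and 0.45) and HSP90AB1, the beta form of the chaperone HSP90 (0.72 and 0.46). These are 2 values per gene from libraries that share OLFM4-wild. Among the 9 genes, ITGA6 and LAMB3 were nearest to each other (0.14), as were ITGB4 and ITGB1 (0.17), while PLEC and LAMA3 were farthest apart (1.34).

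The antisense transcripts that overlap ITGA6 can be told from it because strand was used in counting. ITGA6-AS1 had 1300 counts in OLFM4-wild, 7634 in OLFM4-knockout and 1502 in the OLFM4-active-labelled library, or 6.13, 6.73 and 3.90 per 100 ITGA6 counts. The unnamed antisense gene ENSG00000226963, just inside the start of ITGA6, had 3.93, 5.02 and 2.96 per 100 ITGA6 counts. PDK1-AS1, which crosses the end of ITGA6, had 4.14, 3.60 and 4.61. GALK1, a galactose kinase gene on the opposite strand that crosses the end of ITGB4, had 218, 781 and 185 counts, and DST-AS1 had 0, 5 and 6.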
